A study of Mus musculus with 21 samples.

Results

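The clade B serpins are protease inhibitors of the cell interior, and 20 of their genes were followed in the skin of mice with a sclerodermatous form of chronic graft-versus-host disease, where transplanted immune cells cause skin hardening in the host. Members were the rows of the count table named Serpinb with a number and at most 1 letter, without the suffix -ps of pseudogenes, whose mean count reached 10 in either of the 2 counting runs. Of 64050 rows, 28 had such a name and 20 of these reached the mean. Left out were Serpinb1b, Serpinb3d and Serpinb9c to Serpinb9h, and 1 row with that suffix. All 20 members were tested in the first counting run and 19 in the second, where Serpinb3c was too low.

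All recipients were BALB/c mice, 8 weeks old, irradiated with 700 cGy and given marrow, treated from day 21 and sampled at week 7. Syngeneic mice had BALB/c marrow and an isotype control antibody (4 libraries). Allogeneic mice had B10.D2 marrow and the isotype antibody, mIgG2a LALA-PG (4 libraries), the anti-IL1RAP antibody mCAN10 (4), ddH2O (4, called water here) or nintedanib (5). Antibodies were injected intraperitoneally at 20 mg/kg and then at 10 mg/kg. Nintedanib, an inhibitor of receptor tyrosine kinases, was given at 50 mg/kg each day by mouth per the treatment protocol, while the design text gives injection for all allogeneic groups, so its route is uncertain. IL1RAP is the co-receptor shared by the receptors for IL-1, IL-33 and IL-36. Disease and donor strain cannot be told apart between allogeneic and syngeneic skin, because no disease-free allogeneic group was analysed here. Each library came from poly-A RNA of a piece of skin 3 mm across, and the kit does not mark strand. Nothing in the labels says that each library is a separate mouse, so p-values measure only the spread between these samples.

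A serpin holds out an exposed stretch, the reactive centre loop, as bait for a protease. When the protease cuts it, the loop inserts into the body of the serpin and the enzyme is trapped in a dead complex. Clade B members lack a classical secretion signal and act mostly inside the cell, where several protect it from proteases of its own lysosomes or from granule proteases of leukocytes. In skin many are products of the stratified epidermis, and their genes sit in a few dense clusters made by repeated duplication.

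Both mouse clusters were represented. By the gene models of an older build (GENCODE M21, GRCm38), 11 members lie on chromosome 1, in the order Serpinb5, 12, 13, 3a, 3b, 3c, 11, 7, 2, 10 and 8. The other 9 lie on chromosome 13, in the order Serpinb1a, 1c, 6b, 9, 9b, 6d, 6e, 6c and 6a. The counts used the GRCm39 build, so the older models serve here for names, lengths and sequences only. Coding sequences of Serpinb3b and Serpinb3c were 93.4% identical, those of Serpinb3a and Serpinb3b 93.1%, and those of Serpinb1a and Serpinb1c 89.7%. Identical stretches of 50 bases took up 14.3% of such windows in Serpinb3b, 9.4% in Serpinb3c, 6.6% in Serpinb3a and 8.5% in Serpinb6c. A read that lies wholly within such a stretch cannot be assigned to 1 gene by its own bases. How many reads this covers depends on read length and pairing and was not tested, so the levels of near copies are uncertain. Serpinb3b and Serpinb3c also overlap by 35 exon bases and Serpinb2 and Serpinb10 by 291, both on the same strand. Serpinb6a exons overlap other genes on the opposite strand over 29.3% of their length, among them Nqo2 and Ripk1, and Serpinb9b overlaps Gm36099 over 8.3%.

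The loop is where near copies can differ in the bait they offer. The next lines show 60 coding bases from the hinge of the loop onward (from coding base 1006 in the Serpinb3 genes), because Serpinb3a had the largest fold change of the members between allogeneic isotype and syngeneic skin and its copies were called with it. Capitals mark the positions at which the 4 genes are not all alike, 28 of the 60, against 18.4% of positions over the whole aligned coding sequence. Serpinb3d was not a member.
Serpinb3a: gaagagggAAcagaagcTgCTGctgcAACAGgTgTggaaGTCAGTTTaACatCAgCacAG
Serpinb3b: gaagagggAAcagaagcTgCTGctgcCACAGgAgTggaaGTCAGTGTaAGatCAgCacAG
Serpinb3c: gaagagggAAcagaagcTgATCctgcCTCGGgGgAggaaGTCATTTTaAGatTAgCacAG
Serpinb3d: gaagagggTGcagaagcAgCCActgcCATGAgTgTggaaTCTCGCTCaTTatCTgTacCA

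The same window is shown for 3 neighbours on chromosome 13, since Serpinb6e and Serpinb6c, whose coding sequences are 81.8% identical, changed in opposite directions. Here 26 of 60 positions differ, against 28.3% over the whole aligned coding sequence.
Serpinb6c: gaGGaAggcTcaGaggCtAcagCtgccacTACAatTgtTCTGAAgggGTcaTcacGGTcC
Serpinb6d: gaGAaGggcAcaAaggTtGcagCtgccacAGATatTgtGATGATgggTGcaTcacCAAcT
Serpinb6e: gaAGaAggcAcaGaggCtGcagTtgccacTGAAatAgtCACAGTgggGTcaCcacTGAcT

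Family members were expressed in skin over a wide range. Per kilobase of transcript (the longest model of each gene), Serpinb6a at 155 ± 20.0 CPM per kb (SD, n = 4) and Serpinb5 at 106 ± 30.9 CPM per kb led in syngeneic skin. CPM are counts scaled to a common library total, with TMM factors within a counting run. Serpinb5 codes for maspin, a member that does not inhibit proteases, and Serpinb6a for an inhibitor of cathepsin G. Serpinb7, an epidermal serpin whose human counterpart is mutated in a form of palmoplantar keratosis, came next at 65.3 ± 18.1 CPM per kb, followed by Serpinb2, the plasminogen activator inhibitor PAI-2, at 36.0 ± 9.79 CPM per kb. The ranges of mean ± SD of Serpinb6a and Serpinb5 meet, as do those of Serpinb5 and Serpinb7, whereas those of Serpinb7 and Serpinb2 do not meet. All were measured in the same 4 libraries, so whether these ranges meet is no test of the order of the genes. Serpinb3a was the lowest of the 20 in syngeneic skin and in anti-IL1RAP skin and ninth in allogeneic isotype skin. In each of the 5 groups Serpinb5 and Serpinb6a held the top 2 places.

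**Figure D1:**
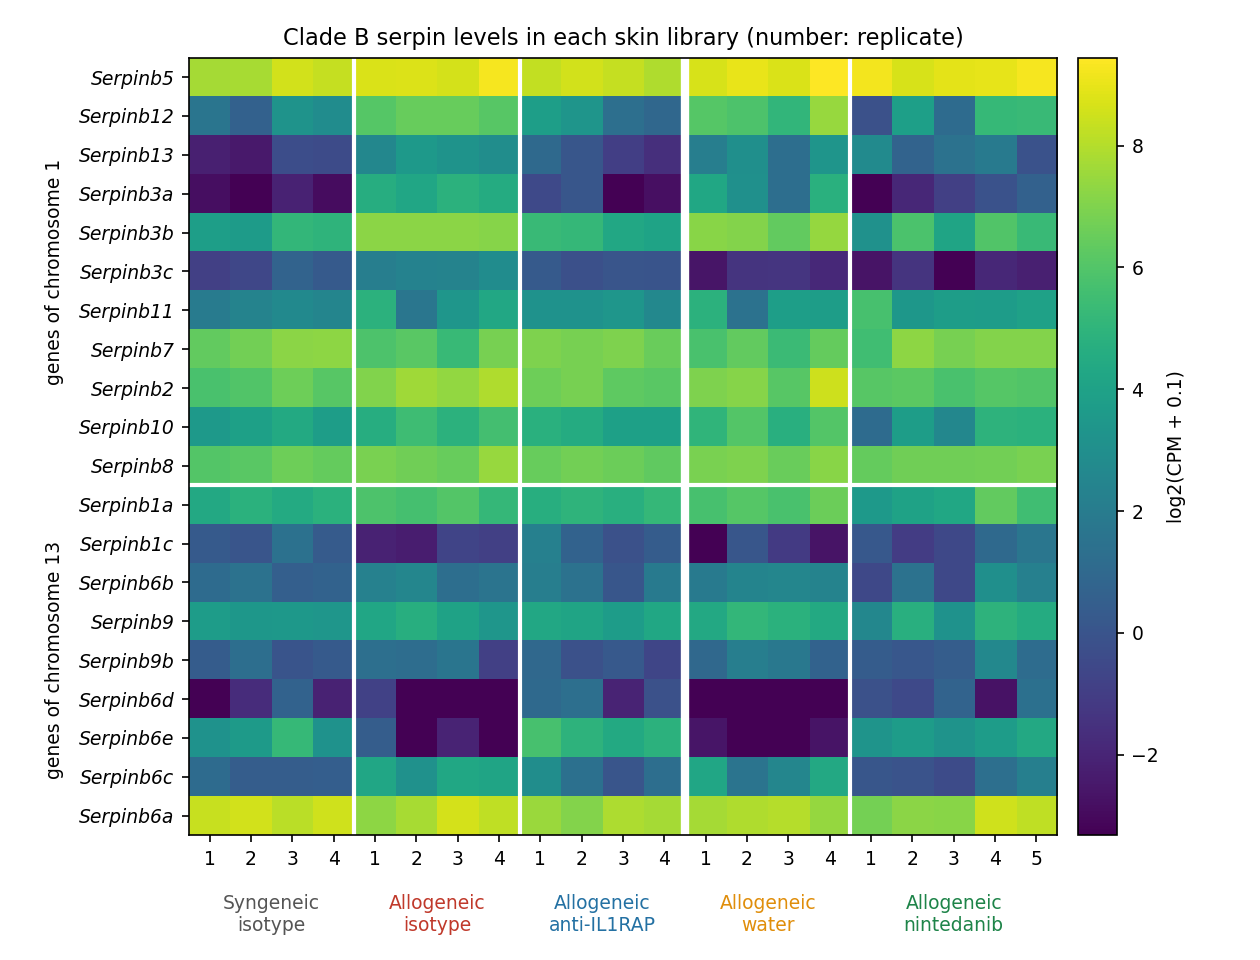
Level of each member as log2(CPM + 0.1), by colour, in each of the 21 libraries, with genes in chromosome order and groups set apart by white lines; the thick line parts the 2 counting runs. Serpinb3a is dark in every syngeneic library and bright in every allogeneic isotype library, and Serpinb6e shows the reverse.

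Summed over the members, allogeneic isotype skin held 1287 to 1823 CPM and syngeneic skin 832 to 1156 CPM. The sum was 838 to 1024 CPM with anti-IL1RAP. It was 1137 to 2063 CPM with water and 986 to 1464 CPM with nintedanib, where replicates 1 and 3 held 1020 and 986 CPM. The first 2 ranges do not overlap, nor do those of allogeneic isotype and anti-IL1RAP skin, whereas those of water and nintedanib overlap.

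Total counts per library ran from 17130264 to 32899212. Basal keratinocyte genes of a list of 6 summed to between 5245 and 18020 CPM in every group, and none was at 0 in any library, so the label skin was met throughout. Some libraries stood apart in other tissue content. The 14 hair follicle genes summed to 59770 and 23360 CPM in nintedanib replicates 1 and 3, against 42.4 to 78.1 CPM in the other 3. They also stood out in allogeneic isotype replicate 1, at 661 CPM (group median 20.6), and in water replicate 3, at 422 CPM (group median 50.0). The 10 skeletal muscle genes ran from 11.98 CPM in allogeneic isotype replicate 1 to 57150 CPM in syngeneic skin. For the nintedanib group, the tests of members and gene lists named here are given with and without replicates 1 and 3.

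The first comparison asked how allogeneic skin differed from syngeneic skin, both with isotype antibody. Of the 20 members, 12 were higher, 2 were lower and 6 were not called. Across all 19438 genes tested 33.6% were called, 18.5% higher and 15.2% lower. The median log2 fold change was 1.06 over the members and -0.02 over all genes. A call means an adjusted p under 0.05 in edgeR's quasi-likelihood test on the 12 libraries of the first counting run, with Benjamini-Hochberg adjustment over all genes, and each log2 fold change is given ± its SE. Groups did not overlap for 12 members, against 30.2% of all genes (16% higher, 14.2% lower). On chromosome 1, 10 of 11 members were higher, the exception being Serpinb7. On chromosome 13, 2 of 9 were higher, Serpinb1a and Serpinb6c, and 2 were lower, Serpinb6e and Serpinb1c. In bulk skin, more cells of a type and more RNA per cell cannot be told apart.

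Serpinb3a, a mouse counterpart of the human squamous cell carcinoma antigens that inhibit cathepsins and chymotrypsin-like proteases, stood at 0.0393, 0, 0.133 and 0.0326 CPM in the syngeneic libraries. In the allogeneic isotype libraries it stood at 25.0, 18.5, 29.5 and 22.7 CPM. Syngeneic skin was thus at the edge of detection, with 5 counts over 4 libraries against 1923 counts in allogeneic skin. That is a ratio of 494 (95% exact counting interval 211 to 1524, covering counting error only), and edgeR gave a log2 fold change of 8.78 ± 0.91 (adjusted p = 5.95e-05, higher in 4 of 4 libraries). Without syngeneic replicate 3, which held most of those counts, edgeR gave 9.63 (adjusted p = 0.000325).

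Its near copies Serpinb3b and Serpinb3c also rose. Serpinb3b stood at 14.2, 12.7, 34.3 and 31.1 CPM in syngeneic skin and at 149, 149, 151 and 138 CPM in allogeneic isotype skin, a log2 difference of 2.67 ± 0.37 (edgeR adjusted p = 0.000347). The allogeneic libraries were nearly alike and all lay above the syngeneic ones. Serpinb3c stood at 0.432, 0.552, 1.60 and 1.11 CPM in syngeneic and at 4.27, 4.89, 5.05 and 7.37 CPM in allogeneic skin, a log2 difference of 2.54 ± 0.37 (edgeR adjusted p = 0.000522). With the counts of Serpinb3b and Serpinb3c summed, because their models overlap, the call stood.

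Serpinb12, an inhibitor of trypsin-like proteases, and Serpinb13, which inhibits cathepsins K and L, lie side by side next to Serpinb5. Serpinb12 was at 3.03, 1.49, 9.19 and 7.27 CPM in syngeneic skin and at 67.8, 88.5, 88.2 and 68.7 CPM in allogeneic isotype skin, a log2 difference of 3.90 ± 0.70 (edgeR adjusted p = 0.00157). Serpinb13 was at 0.118, 0.0849, 0.710 and 0.652 CPM in syngeneic and at 5.81, 11.7, 9.27 and 7.68 CPM in allogeneic skin, a log2 difference of 4.43 ± 0.71 (edgeR adjusted p = 0.000896). For both genes every allogeneic library lay above every syngeneic library. Serpinb5 itself moved far less, from 210, 220, 379 and 325 CPM to 418, 433, 395 and 607 CPM, a log2 difference of 0.71 ± 0.22 (edgeR adjusted p = 0.028). That call was lost without syngeneic replicate 1, syngeneic replicate 2 or allogeneic replicate 4, and over all settings tried the adjusted p was at most 0.0944.

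Further along chromosome 1, Serpinb2 was at 55.6, 63.2, 100.1 and 68.7 CPM in syngeneic skin and at 129, 200.1, 168 and 244 CPM in allogeneic isotype skin, a log2 difference of 1.37 ± 0.23 (edgeR adjusted p = 0.00124). Its neighbour Serpinb10, known from blood-forming cells as bomapin and typed as a polymorphic pseudogene in the GENCODE M21 models, was at 11.4, 15.3, 21.8 and 13.5 CPM in syngeneic and at 24.8, 44.9, 28.9 and 49.4 CPM in allogeneic skin. Its log2 difference was 1.25 ± 0.29 (edgeR adjusted p = 0.00639). Neither gene's groups overlapped. The Serpinb10 call was lost when all 21 libraries entered the fit (adjusted p = 0.107). Serpinb11 was at 3.93, 5.05, 6.62 and 5.48 CPM in syngeneic and at 29.4, 3.14, 10.2 and 20.1 CPM in allogeneic skin, a log2 difference of 1.57 ± 0.50 (edgeR adjusted p = 0.0312). Serpinb8, an inhibitor of furin, was at 65.8, 73.2, 98.2 and 87.1 CPM in syngeneic and at 116, 103, 90.4 and 176 CPM in allogeneic skin, a log2 difference of 0.58 ± 0.20 (edgeR adjusted p = 0.0417). Their groups overlapped, however, and both calls were lost when any of 5 libraries was left out (syngeneic 1, 2 and 4, allogeneic isotype 1 and 4), with an adjusted p of up to 0.131 and 0.184 over all settings.

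Serpinb7 was the member of chromosome 1 that did not rise. It stood at 84.0, 105, 148 and 156 CPM in syngeneic skin and at 58.9, 71.9, 39.1 and 115 CPM in allogeneic isotype skin, with overlapping groups and a log2 difference of -0.79 ± 0.29 (edgeR adjusted p = 0.057). It lies between Serpinb11 and Serpinb2, both called higher.

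On chromosome 13 the pattern was mixed. Serpinb6c was at 2.08, 1.27, 1.24 and 1.31 CPM in syngeneic skin and at 18.6, 8.70, 19.5 and 17.6 CPM in allogeneic isotype skin, a log2 difference of 3.44 ± 0.54 (edgeR adjusted p = 0.000786). Serpinb1a, an inhibitor of neutrophil elastase and other neutrophil granule proteases, was at 20.6, 28.5, 22.2 and 28.4 CPM in syngeneic and at 58.1, 52.0, 64.1 and 36.2 CPM in allogeneic skin, a log2 difference of 1.08 ± 0.19 (edgeR adjusted p = 0.00131). Groups did not overlap for either gene, and Serpinb1a lost its call in the fit of all 21 libraries (adjusted p = 0.0758).

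Serpinb6e fell. It stood at 9.15, 12.4, 37.3 and 9.003 CPM in the syngeneic libraries and at 1.27, 0, 0.138 and 0 CPM in the allogeneic isotype libraries, a log2 difference of -5.47 ± 0.90 (edgeR adjusted p = 0.00101). No library of 1 group reached the range of the other. The size rests on single libraries: without allogeneic replicate 1 it was -8.21 (adjusted p = 0.000236) and without syngeneic replicate 3 it was -4.74 (adjusted p = 0.00245). Serpinb1c, the low-level near copy of Serpinb1a, fell from 1.14, 0.934, 2.62 and 1.17 CPM to 0.136, 0.103, 0.505 and 0.430 CPM, a log2 difference of -2.31 ± 0.68 (edgeR adjusted p = 0.0217). Its call was lost without syngeneic replicate 3 (adjusted p = 0.0618), allogeneic replicate 1 (0.0563) or allogeneic replicate 2 (0.057), which left Serpinb6e as the member called lower. Serpinb9, the inhibitor of granzyme B, had a log2 difference of 0.64 ± 0.23 (edgeR adjusted p = 0.0534). Serpinb6a, 6b, 6d and 9b were not called either, with adjusted p from 0.0826 to 0.432.

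**Figure D2:**
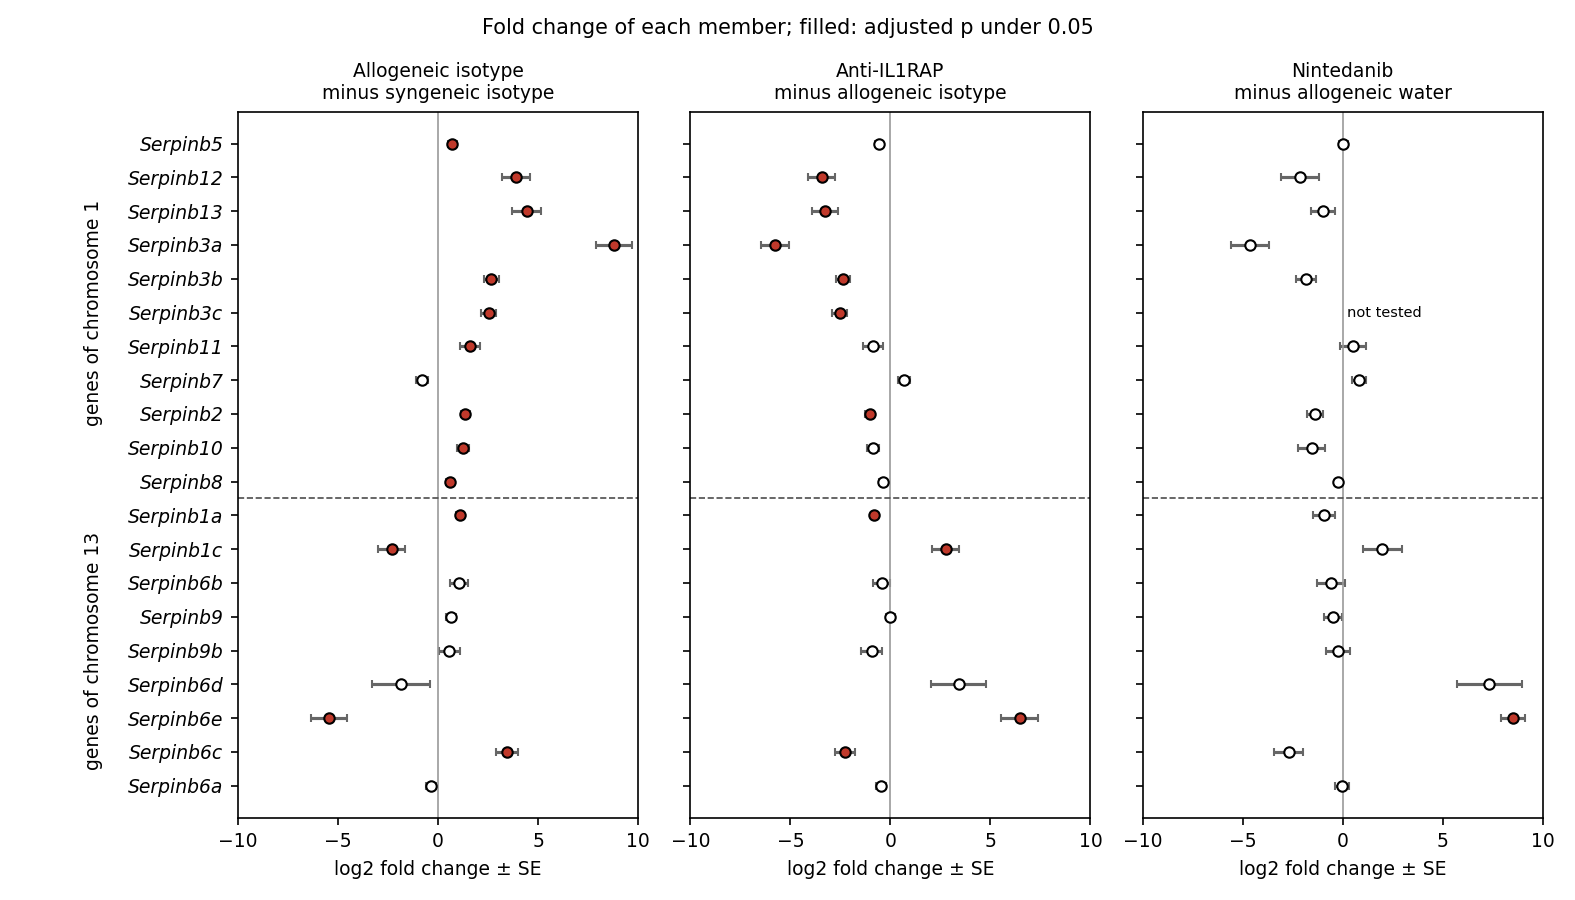
Log2 fold change of each member with its SE in the 3 comparisons, filled where the edgeR adjusted p was under 0.05; genes are in chromosome order and the dashed line parts chromosomes 1 and 13. Of the filled points on the left, 12 lie right of 0 and 2 left; the nintedanib panel has 1 filled point, Serpinb6e, and its open point for Serpinb6d depends on the prior count because every water library was at 0.

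Levels of keratinocyte genes moved in the same libraries. Of 8 activated keratinocyte genes 7 were called higher in allogeneic isotype skin, among them Krt6b (log2 difference 8.14 ± 0.33) and Krt16 (6.85 ± 0.48), both keratins of stressed epidermis. Their sum was 839 to 1335 CPM in syngeneic, 4195 to 9213 CPM in allogeneic isotype and 1133 to 1573 CPM in anti-IL1RAP skin. Of 11 differentiated keratinocyte genes 7 were higher, including Flg (log2 difference 4.69 ± 0.47), the gene of filaggrin, and their sum was 13230 to 25280 CPM in syngeneic and 39480 to 73320 CPM in allogeneic isotype skin. Sprr1b, of the activated list, was at 0 in 1 library and no other gene of these 2 lists was at 0 in any. Leukocyte genes were called higher as well: 10 of 10 macrophage and monocyte genes, 9 of 9 tested T and natural killer cell genes and 4 of 6 tested neutrophil genes. Some listed genes went the other way. The mean of Ncr1, the natural killer cell gene not tested, was 1.06 CPM in syngeneic and 0.0227 CPM in allogeneic isotype skin. Of the neutrophil list, Ltf had means of 11.3 and 0.390 CPM and Elane of 0.434 and 0.162 CPM. S100a8 and S100a9 stand in both the neutrophil and the activated keratinocyte list. The macrophage and monocyte sum was 640 to 1275 CPM in syngeneic and 1583 to 4591 CPM in allogeneic isotype skin, and the T and natural killer cell sum 8.25 to 21.3 CPM and 56.7 to 164 CPM. The neutrophil sum was 9.46 to 53.0 CPM and 59.9 to 127 CPM, with Elane, Mpo, Ltf, Camp and Ngp at 0 in 3 to 9 of the 21 libraries. The part of epidermal or leukocyte content in the rise of the serpins was not tested.

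Promoter sequences were matched for 18 members (RefSeq, GRCm38.p6), with none for Serpinb13 or Serpinb1a. The 250 bases before the first listed start were searched on both strands for 6 motifs: AP-1 (TGANTCA), NF-kB (GGGNNTTCC), STAT (TTCNNNGAA), the interferon-stimulated response element, C/EBP (TTGCNNAA) and a TATA box (TATAAA). AP-1 letters were present in 7 of 18 members, Serpinb5, 12, 11, 7, 2, 10 and 8, all on chromosome 1, and in 6.7% of 32851 promoters in the table. Of these 7, 6 were called higher in allogeneic isotype skin and Serpinb7 was not, and the 3 promoters of chromosome 1 without the letters, those of Serpinb3a, 3b and 3c, also belong to genes called higher. The TATA letters were in 6 of 18 and in 12.4% of all promoters, C/EBP in 2 (9.6%), the interferon element in 2 (3.0%), NF-kB in 1 (5.0%) and STAT in 1 (7.0%). The STAT and interferon matches of Serpinb6a overlap each other. Shown are 4 members that rose, 2 with an AP-1 match and 2 without, and Serpinb6e, which fell. Capitals mark any of the 6 motifs.
Serpinb12, chr1:106934199-106934448, plus strand: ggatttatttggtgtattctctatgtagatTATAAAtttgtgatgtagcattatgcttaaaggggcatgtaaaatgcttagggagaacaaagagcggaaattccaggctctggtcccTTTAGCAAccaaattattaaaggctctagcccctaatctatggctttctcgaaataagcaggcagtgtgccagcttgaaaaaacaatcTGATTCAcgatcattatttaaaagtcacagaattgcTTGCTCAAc
Serpinb2, chr1:107511173-107511422, plus strand: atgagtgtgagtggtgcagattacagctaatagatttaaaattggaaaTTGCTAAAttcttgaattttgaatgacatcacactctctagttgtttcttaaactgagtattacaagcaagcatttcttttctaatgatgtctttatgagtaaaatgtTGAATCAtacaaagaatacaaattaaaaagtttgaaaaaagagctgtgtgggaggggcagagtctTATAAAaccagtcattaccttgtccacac
Serpinb3a, chr1:107052304-107052553, minus strand: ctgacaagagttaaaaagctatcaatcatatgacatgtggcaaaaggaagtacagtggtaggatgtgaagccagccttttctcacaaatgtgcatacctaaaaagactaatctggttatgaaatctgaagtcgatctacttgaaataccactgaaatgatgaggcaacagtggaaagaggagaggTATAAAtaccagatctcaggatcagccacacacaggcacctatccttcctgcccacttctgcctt
Serpinb3b, chr1:107161115-107161364, minus strand: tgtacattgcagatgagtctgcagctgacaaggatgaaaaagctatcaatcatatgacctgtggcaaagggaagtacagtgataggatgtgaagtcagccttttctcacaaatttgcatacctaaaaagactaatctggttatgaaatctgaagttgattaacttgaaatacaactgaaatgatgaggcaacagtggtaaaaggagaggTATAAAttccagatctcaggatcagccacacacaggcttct
Serpinb6e, chr13:33843409-33843658, minus strand: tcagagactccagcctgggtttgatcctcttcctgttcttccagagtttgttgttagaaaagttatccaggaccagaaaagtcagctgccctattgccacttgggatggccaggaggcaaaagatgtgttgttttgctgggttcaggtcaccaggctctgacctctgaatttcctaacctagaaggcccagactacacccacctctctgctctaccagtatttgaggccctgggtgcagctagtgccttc

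In Serpinb12 the AP-1 letters begin 45 bases before the start, with C/EBP matches 133 and 9 bases before it, and in Serpinb2 they begin 94 bases before it. Serpinb3a and Serpinb3b carry no AP-1 match in these windows and have TATA letters 65 and 41 bases before their starts. None of the 6 motifs was found in the Serpinb6e window. A match is only a match of letters, and its absence says nothing about a factor.

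The second comparison asked what anti-IL1RAP changed in allogeneic skin. Relative to allogeneic isotype, 8 members were lower, 2 were higher and 10 were not called. Across all 19438 genes 18.8% were called, 9.66% lower and 9.19% higher. The median log2 fold change was -0.84 over the members and -0.03 over all genes. Groups did not overlap for 11 members, against 24% of all genes (11.9% higher, 12.1% lower). The 8 lower members were Serpinb3a, 3b, 3c, 12, 13, 2, 1a and 6c, and the 2 higher were Serpinb6e and Serpinb1c. Both comparisons share the allogeneic isotype libraries, so their opposite signs are not independent of each other. Leaving out any 1 library changed none of these 10 calls.

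Serpinb3a stood at 0.594, 0.964, 0 and 0.0448 CPM with anti-IL1RAP, every library far below the 18.5 to 29.5 CPM of allogeneic isotype skin, a log2 difference of -5.77 ± 0.71 (edgeR adjusted p = 0.000506). Without anti-IL1RAP replicate 2, the highest library, the difference was -6.67 (adjusted p = 0.000907). Serpinb3b was at 40.5, 36.4, 20.4 and 16.9 CPM, a log2 difference of -2.36 ± 0.36 (edgeR adjusted p = 0.00149), and Serpinb3c at 1.11, 0.753, 0.928 and 0.896 CPM, one of -2.54 ± 0.37 (edgeR adjusted p = 0.00121). Replicates 1 and 2 were the higher pair for Serpinb3a, 3b, 12, 13 and 2 alike. Serpinb12 was at 14.3, 10.1, 2.41 and 1.84 CPM, a log2 difference of -3.44 ± 0.68 (edgeR adjusted p = 0.00543). Serpinb13 was at 1.93, 0.964, 0.418 and 0.224 CPM, a log2 difference of -3.25 ± 0.66 (edgeR adjusted p = 0.00613), and without replicate 1 it was -3.94 (adjusted p = 0.00494). All of these libraries lay below the allogeneic isotype range.

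Serpinb2 fell to 97.3, 113, 77.8 and 72.3 CPM, a log2 difference of -1.04 ± 0.23 (edgeR adjusted p = 0.00971). Serpinb1a fell to 25.8, 32.0, 26.2 and 36.1 CPM, a log2 difference of -0.81 ± 0.18 (edgeR adjusted p = 0.0111). In the fit of all 21 libraries neither of these smaller changes was called. Serpinb6c fell to 7.46, 2.53, 0.928 and 2.37 CPM, a log2 difference of -2.27 ± 0.51 (edgeR adjusted p = 0.01), and without replicate 1, the highest of the 4, it was -3.03 (adjusted p = 0.00157). Groups did not overlap for any of these 3 genes, although for Serpinb1a the gap was only from 36.15 to 36.17 CPM. Serpinb10 missed the threshold at -0.88 ± 0.28 (edgeR adjusted p = 0.0514), as did Serpinb5 at -0.57 ± 0.22 (edgeR adjusted p = 0.0919), whose anti-IL1RAP libraries nonetheless all lay below the allogeneic isotype ones. Serpinb9 had the same mean in both groups, 17.6 CPM.

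Serpinb6e rose to 53.7, 30.1, 21.4 and 29.0 CPM, all above the highest allogeneic isotype library at 1.27 CPM, a log2 difference of 6.46 ± 0.92 (edgeR adjusted p = 0.00107). Without allogeneic replicate 1, the library with most of that group's Serpinb6e counts, it was 9.20 (adjusted p = 0.000275). Serpinb1c rose to 4.57, 1.51, 0.789 and 1.21 CPM, a log2 difference of 2.78 ± 0.68 (edgeR adjusted p = 0.0151), which was 1.99 (adjusted p = 0.0371) without anti-IL1RAP replicate 1. Serpinb6d, next to Serpinb6e, was at 1.93, 2.41, 0.139 and 0.806 CPM against 0.454, 0, 0 and 0 CPM in allogeneic isotype skin, with overlapping groups and a log2 difference of 3.41 ± 1.37 (edgeR adjusted p = 0.104).

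**Figure D3:**
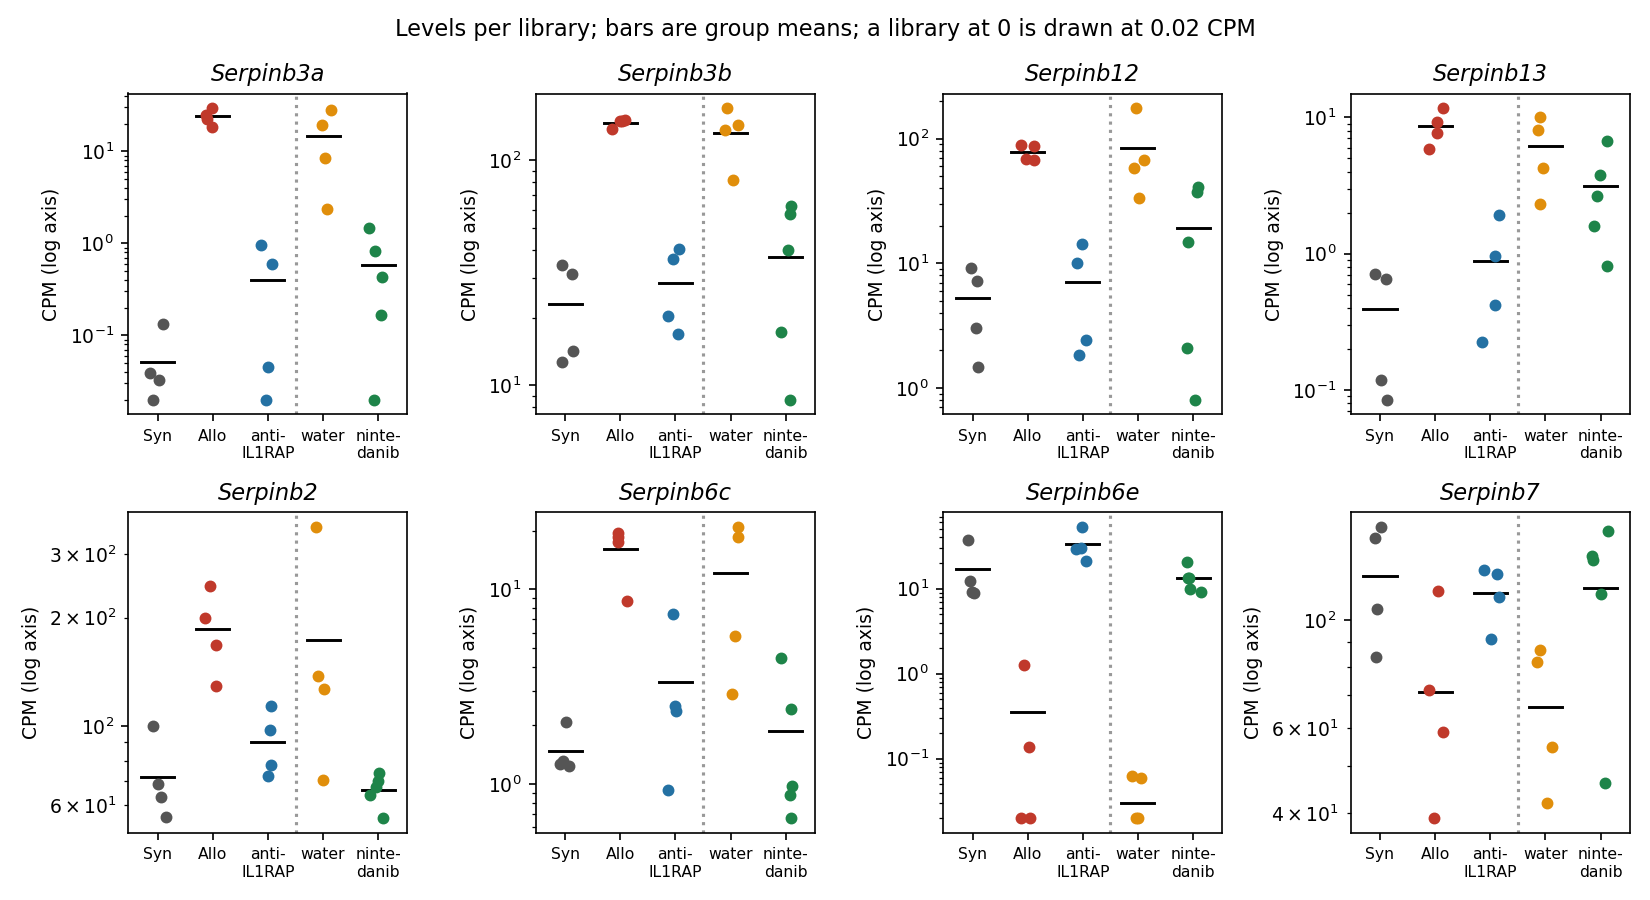
CPM of 8 members in each library on log axes, by group, with group means as bars and libraries at 0 drawn at 0.02 CPM; the dotted line parts the 2 counting runs. In the first 6 panels allogeneic isotype points lie above syngeneic and anti-IL1RAP points, and in the Serpinb6e panel they lie below both.

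Activated keratinocyte genes went the other way in this comparison too, with 7 of 8 lower, and 6 of 11 differentiated keratinocyte genes were lower. None of the 10 macrophage and monocyte genes and none of the 9 T and natural killer cell genes tested was called by edgeR, with 1 of each list at an unadjusted p under 0.05. Of 6 neutrophil genes 3 were lower, Cxcr2 (-3.60 ± 0.48), S100a9 (-2.98 ± 0.68) and S100a8 (-2.78 ± 0.66), the last 2 also made by activated keratinocytes. Their list summed to 21.7 to 41.7 CPM with anti-IL1RAP. The part of keratinocyte or neutrophil content in the fall of the serpins was not tested.

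Compared with syngeneic skin, anti-IL1RAP skin had 0 of 20 members called by edgeR, against 2.6% of all genes (2.17% higher, 0.427% lower). At an unadjusted p under 0.05 there were 4, and DESeq2 called 1, lower. Serpinb3a was 3.01 ± 1.05 higher on the log2 scale (edgeR adjusted p = 0.145) on 49 counts against 5, a ratio of 9.63 (95% exact counting interval 3.86 to 31.0). Anti-IL1RAP replicates 1 and 2 lay above every syngeneic library and replicates 3 and 4 within their range. Without replicate 2 the difference was 2.11 (adjusted p = 0.402), and without syngeneic replicate 3 it was 3.86 (adjusted p = 0.185). Serpinb6e differed by 0.99 ± 0.67 (edgeR adjusted p = 0.433), and by 1.72 (adjusted p = 0.238) without syngeneic replicate 3. Serpinb6a was lower in every anti-IL1RAP library, at 136 to 234 CPM against 279 to 375 CPM, a log2 difference of -0.82 ± 0.26 (edgeR adjusted p = 0.118). It was the 1 member whose groups did not overlap, against 19.6% of all genes (9.34% higher, 10.3% lower). A p above the threshold does not show that the groups were alike.

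The third comparison set nintedanib against water in allogeneic skin, within the second counting run of 9 libraries. Of 19 members tested 1 was higher, Serpinb6e, and 0 were lower, where 0.579% of 16230 genes were called (0.382% higher, 0.197% lower). At an unadjusted p under 0.05 there were 8 members. The median log2 fold change was -0.49 over the members, which placing Serpinb6d at its bound leaves unchanged, and 0.06 over all genes. Both DESeq2 and edgeR on all 21 libraries called 2 members higher, Serpinb6e and Serpinb6d, and 4 lower, Serpinb3a, 3b, 2 and 6c. The number of genes called overall ranged from 3 to 139 when 1 library was left out, lowest without water replicate 4. Leaving out nintedanib replicates 1 and 3, rich in hair follicle genes, kept 1 member higher, Serpinb6e (log2 difference 8.72, adjusted p = 0.00444), and 0 lower. The median log2 fold change was then -0.20 over the 18 members tested, with 9 at an unadjusted edgeR p under 0.05.

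Serpinb6e stood at 0.0629, 0, 0 and 0.0586 CPM in the water libraries and at 9.78, 13.2, 9.20, 13.2 and 20.7 CPM in the nintedanib libraries. All nintedanib libraries lay far above all water libraries. The counts were 1199 against 2, a ratio of 447 (95% exact counting interval 124 to 3696), and edgeR gave a log2 difference of 8.51 ± 0.60 (adjusted p = 0.00129). Its call stood in each of the 17 alternative settings tried, with an adjusted p of at most 0.0439. Serpinb6d was at 0 in all 4 water libraries and at 0.806, 0.604, 1.57, 0.0550 and 2.57 CPM with nintedanib, at least 25.6-fold higher against a floor of 3 counts over the water group (edgeR adjusted p = 0.101).

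Serpinb3a stood at 19.3, 8.52, 2.37 and 27.8 CPM with water and at 0, 0.165, 0.429, 0.825 and 1.46 CPM with nintedanib, without overlap. Its log2 difference was -4.65 ± 0.96, which missed the threshold (edgeR adjusted p = 0.0594) but not in DESeq2 (adjusted p = 1.04e-05). Serpinb3b stood at 143, 136, 81.8 and 171 CPM with water and at 8.63, 57.5, 17.3, 62.5 and 39.8 CPM with nintedanib, again without overlap, a log2 difference of -1.84 ± 0.52 (edgeR adjusted p = 0.118; DESeq2 adjusted p = 0.01). Over all 16230 genes 9.75% had groups that did not overlap (5.87% higher, 3.88% lower with nintedanib), and 4 members did, Serpinb6e, 6d, 3a and 3b. Without nintedanib replicates 1 and 3 the log2 differences were -4.19 for Serpinb3a (edgeR adjusted p = 0.113) and -1.36 for Serpinb3b (edgeR adjusted p = 0.0954), and Serpinb6d was too low to test.

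Serpinb6c was at 18.6, 2.89, 5.79 and 21.0 CPM with water and at 0.978, 0.879, 0.667, 2.42 and 4.43 CPM with nintedanib, a log2 difference of -2.69 ± 0.73 (edgeR adjusted p = 0.11; DESeq2 adjusted p = 0.00305). Serpinb2 was at 126, 137, 70.8 and 359 CPM with water and at 70.1, 73.8, 55.3, 67.6 and 64.0 CPM with nintedanib, a log2 difference of -1.39 ± 0.39 (edgeR adjusted p = 0.118; DESeq2 adjusted p = 0.0156). Water replicate 4 carried much of it, and without that library the difference was -0.76 (adjusted p = 0.244). Without nintedanib replicates 1 and 3 the differences were -2.28 for Serpinb6c (edgeR adjusted p = 0.206) and -1.38 for Serpinb2 (edgeR adjusted p = 0.212). Both genes had overlapping groups. Serpinb12 ran from 33.5 to 176 CPM with water and from 0.806 to 40.8 CPM with nintedanib, a log2 difference of -2.13 ± 0.97 (edgeR adjusted p = 0.26), or -1.48 ± 0.59 (edgeR adjusted p = 0.248) without nintedanib replicates 1 and 3. Nintedanib replicates 1 and 3, the hair-rich libraries, were its lowest at 0.806 and 2.10 CPM, and they were also the lowest for Serpinb3b and Serpinb10. Serpinb7 had a log2 difference of 0.81 ± 0.34 (edgeR adjusted p = 0.238), or 1.05 ± 0.25 (edgeR adjusted p = 0.114) without them. Of the 8 activated keratinocyte genes 1 was lower with nintedanib, Krt16 (log2 difference -4.59 ± 0.79), a call that was lost without those libraries (-4.35 ± 1.00, edgeR adjusted p = 0.111), and their sum was 2273 to 11530 CPM with water and 879 to 2868 CPM with nintedanib. Serpinb3c, too low to test, held 0 to 0.662% of the reads of Serpinb3b and Serpinb3c together in this counting run and 2.03 to 5.07% in the first. The cause of that difference between runs was not tested.

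The 2 treatment effects were also compared directly, as anti-IL1RAP against isotype minus nintedanib against water, over 17099 symbols with counts in both runs. None of the 20 members was called by edgeR (0% of all genes), 2 had an unadjusted p under 0.05, and DESeq2 called 0, with 454 genes called by it in all. Without nintedanib replicates 1 and 3, edgeR called 0 members and 6 genes, with 1 member at an unadjusted p under 0.05, Serpinb3c at -2.38 ± 0.71 (edgeR adjusted p = 0.208). With all libraries the difference of effects was -2.05 ± 1.57 for Serpinb6e (edgeR adjusted p = 0.57) and -1.12 ± 1.19 for Serpinb3a (edgeR adjusted p = 0.706). The members with the lowest unadjusted p were then Serpinb13, at -2.27 ± 0.96 (edgeR adjusted p = 0.294), and Serpinb3c, at -1.80 ± 0.83 (edgeR adjusted p = 0.331). Without nintedanib replicates 1 and 3 Serpinb6e was at -2.30 ± 1.725 (edgeR adjusted p = 0.68) and Serpinb3a at -1.59 ± 1.16 (edgeR adjusted p = 0.672). Serpinb13 was then at -1.64 ± 0.96 (edgeR adjusted p = 0.558). Serpinb3c had only 0 to 5 counts in each water or nintedanib library and was too low to test within that run, so both its values rest on few counts. No difference between the treatments was shown for any member, which does not show that they act alike.

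Sebaceous gland genes moved with Serpinb6e. Of 9 such genes 6 were lower in allogeneic isotype than in syngeneic skin, 7 were higher with anti-IL1RAP and 4 were higher with nintedanib, including Scd3 (log2 differences -5.73 ± 0.56, 5.83 ± 0.56 and 5.51 ± 0.66) and Awat2 (-4.63 ± 0.67, 4.93 ± 0.68 and 5.10 ± 0.47), both of sebaceous lipid synthesis. Without nintedanib replicates 1 and 3, 2 of 9 were called higher with nintedanib, Scd3 (5.86 ± 0.62) and Awat2 (5.24 ± 0.48). Their sum was 474 to 971 CPM in syngeneic, 93.2 to 290 CPM in allogeneic isotype, 613 to 1139 CPM in anti-IL1RAP, 92.7 to 157 CPM in water and 282 to 1134 CPM in nintedanib skin. Dgat2l6 was at 0 in 2 libraries and the other 8 genes in none. Within groups, the library with the most sebaceous RNA also had the most Serpinb6e in the syngeneic, allogeneic isotype, anti-IL1RAP and nintedanib groups, and not in the water group. Between groups Serpinb6e and this sum did not always go together. Highly expressed genes dominate the sum. In allogeneic isotype skin Mgst1 and Soat1 had means of 98.4 and 31.8 CPM, and Scd3 and Awat2 of 2.43 and 1.16 CPM. Similar sums therefore need not mean similar gland content. Nintedanib replicate 4 had a sebaceous sum of 282 CPM and 13.2 CPM of Serpinb6e, and allogeneic isotype replicate 1 had 290 CPM and 1.27 CPM. The part of sebaceous gland content in the Serpinb6e result was examined only with the covariate described next.

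**Figure D4:**
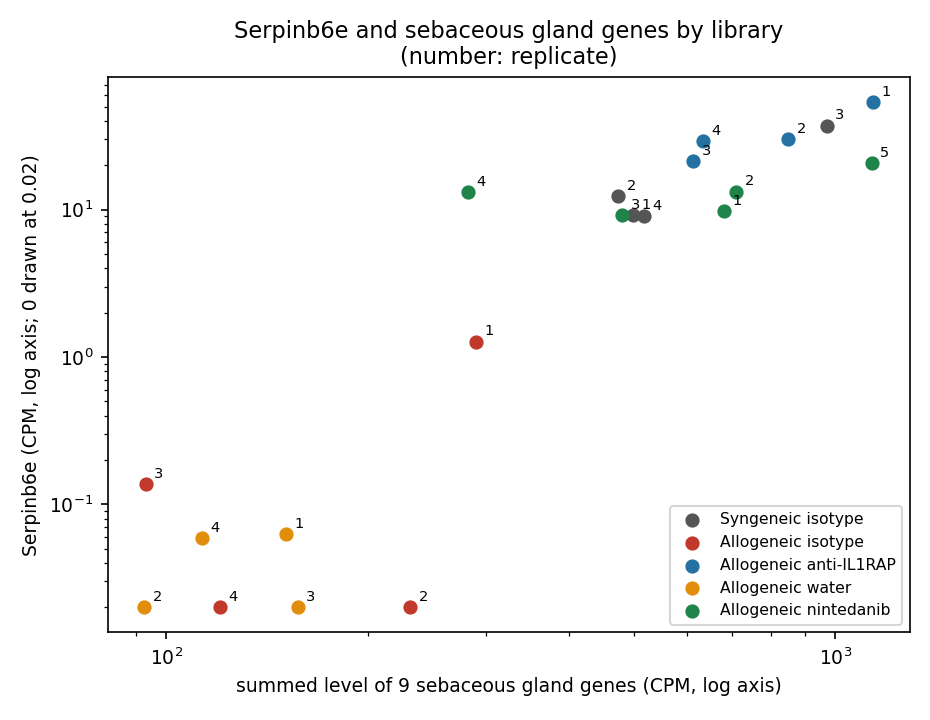
Serpinb6e CPM against the summed CPM of 9 sebaceous gland genes in each of the 21 libraries, both axes log, coloured by group and numbered by replicate, with libraries at 0 drawn at 0.02 CPM. Allogeneic isotype and water libraries lie at the lower left, at no more than 290 CPM of sebaceous genes and 1.27 CPM of Serpinb6e. Nintedanib replicate 4 lies above them, at 282 CPM of sebaceous genes and 13.2 CPM of Serpinb6e.

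When the log2 sum of these genes entered the fit of the first counting run as a covariate, the Serpinb6e difference between allogeneic isotype and syngeneic skin was -2.56 ± 0.85 (adjusted p = 0.045) and that between anti-IL1RAP and isotype was 3.00 ± 0.97 (adjusted p = 0.0886). The covariate itself parts the groups, so sebaceous content and group cannot be told apart in this fit. Serpinb3a kept its call with the covariate, at -6.27 ± 1.27 with anti-IL1RAP (adjusted p = 0.0261), as did Serpinb3b, 3c and 12. Serpinb13, 2, 1a, 6c and 1c lost their anti-IL1RAP calls with it, like Serpinb6e. In allogeneic isotype against syngeneic skin Serpinb11, 8, 5 and 1c lost theirs. Because this covariate parts the groups, a call kept or lost with it does not show whether a member's change follows sebaceous content. With skeletal muscle content as covariate the Serpinb6e difference between allogeneic isotype and syngeneic skin was -8.39 ± 0.96 (adjusted p = 0.000169). Allogeneic isotype replicate 1 held 11.98 CPM of the muscle genes, against 4060 CPM or more in every other library of that run. It also held most of its group's Serpinb6e counts, so this fit cannot separate muscle content from that library.

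A list of 28 tested genes held proteases that clade B serpins inhibit or that act beside them, and the urokinase receptor gene Plaur, which codes for no protease. In allogeneic isotype against syngeneic skin 16 of 28 were higher and 1 was lower, with a median log2 difference of 0.94, and without Plaur 15 of 27 and 1 (median 0.83). The 4 with the lowest p were Mmp9 (2.52 ± 0.25), a matrix protease, Ctsh (1.39 ± 0.15), a lysosomal cathepsin, Casp1 (1.32 ± 0.15), the protease that matures IL-1 beta, and Casp14 (2.76 ± 0.33), a caspase of the cornified layer. With anti-IL1RAP 8 of 28 were lower and 0 were higher (median -0.34), or 7 of 27 without Plaur (median -0.30), led by Mmp9 (-2.85 ± 0.25), Casp14 (-2.85 ± 0.33), Ctsh (-0.88 ± 0.15) and Klk7 (-1.48 ± 0.28), a kallikrein of epidermal shedding. Against syngeneic skin 4 of 28 were higher with anti-IL1RAP and 0 were lower (median 0.41): Casp1 (1.14 ± 0.15), Casp4 (0.93 ± 0.19), Gzmb (3.34 ± 0.69), the gene of granzyme B, and Ctsc (1.25 ± 0.27). With nintedanib 0 of 28 were called by edgeR and 4 had an unadjusted p under 0.05 (median -0.16), as did 4 without replicates 1 and 3 (median -0.22).

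Serpins of other clades moved in both directions. Of 25 tested, 9 were higher and 5 were lower in allogeneic isotype than in syngeneic skin (median log2 difference 0.33), led by Serpina3f (2.78 ± 0.32), Serpina3g (2.47 ± 0.32), Serpinf1 (-2.18 ± 0.32), the gene of PEDF, and Serpina3n (1.79 ± 0.37). With anti-IL1RAP 6 were higher and 1 was lower, although the median was -0.22, led by Serpina3b (3.02 ± 0.48), Serpinf1 (1.88 ± 0.32), Serpina9 (-3.57 ± 0.71) and Serpind1 (1.63 ± 0.37), the gene of heparin cofactor II. Against syngeneic skin 2 were higher with anti-IL1RAP, Serpina3f (1.98 ± 0.31) and Serpina3g (1.55 ± 0.31). With nintedanib 1 of 20 was called, Serpina3b, at 5.70 ± 0.92 (edgeR adjusted p = 0.0378), and the median was -0.34. Without replicates 1 and 3 none was called, with 4 at an unadjusted p under 0.05, and Serpina3b was at 6.205 ± 0.72 (edgeR adjusted p = 0.0521).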

How the data were processed

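Poly-A RNA of mouse skin was sequenced, and the authors deposited raw counts, whole numbers per gene symbol. Per the submitters' processing notes, FastQC, Trimmomatic, STAR and featureCounts were used with the GRCm39 build. No version, setting or annotation is stated in the sources used here. Gene names differed in part between the 12 libraries of mice given antibodies and the 9 of mice given water or nintedanib (12094 symbols had counts only in the first set and 6185 only in the second), so each set was fitted alone. The difference of the 2 treatment effects, each against the control of its own set, was the 1 test that joined them, in a fit of all 21 libraries on symbols with counts in both.

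Each set was fitted with edgeR 4.0.16 in R 4.3.3: filterByExpr at a minimum count of 10, TMM scaling, then glmQLFit and glmQLFTest on group means, Benjamini-Hochberg adjustment over all genes of the fit, and a call at an adjusted p under 0.05. A fold against a group at 0 is a bound at 3 counts over the group; ratios on few counts have a 95% exact interval, and these cover counting error only. Alternatives were RLE factors, no filter, DESeq2 1.42.0, other sets of libraries or symbols, a replicate block, a lane term and leaving out each library; muscle or sebaceous content as covariate, summed overlapping genes, the protease list without Plaur, and nintedanib without replicates 1 and 3 were chosen after seeing the data. In simulated counts with 100 genes changed 4-fold the fits recovered 76, 77 and 63. These fits were allogeneic isotype against syngeneic (19136 genes), anti-IL1RAP against isotype (19155) and nintedanib against water (15945). Of 100 changed 2-fold they recovered 51, 40 and 12, and false calls were 6, 7 and 3. In the data 33.6% and 18.8% of genes were called in the first 2 comparisons, a larger share than was changed here. Recovery at such shares was not tested.

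The members and gene lists were chosen with earlier results of these data known. Named genes were all members and up to 4 called genes with the lowest p of the protease and other serpin lists. Values in every library are given for members in the comparisons that called them, and for Serpinb6e and Serpinb3a. Marker genes were named after their values were seen. No 2 libraries agreed within sampling noise. No pairing by replicate number was seen: no comparison had every same-number correlation of deviations above 0.1. For anti-IL1RAP against isotype by title number they were 0.293, -0.029, 0.419 and 0.037. Tissue content also varied between libraries, so this check cannot exclude pairing. Promoters came from RefSeq (GRCm38.p6) and coding sequences from GENCODE M21, aligned with Biopython 1.88. Plots used matplotlib 3.10.9 (Python 3.11.15).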

Additional observations from a re-analysis of the deposited data

Results flagged for a closer look

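Of 100 groups of 4 or 5 libraries (20 members in 5 groups), 8 had a library set apart from the rest of its group by Dixon's ratio. Serpinb6d with water, at 0 in every library, could not be checked. A chance rate of about 1 in 20 holds for independent values of a normal distribution. CPM near 0 and genes that share libraries do not meet this, so the 8 cannot be set against that rate. In syngeneic replicate 3, Serpinb6e was at 37.3 CPM, Serpinb1c at 2.62 CPM and Serpinb6d at 1.51 CPM, each the highest of its group. The sebaceous gland genes were also highest there, at 971 CPM. In allogeneic isotype replicate 1, Serpinb6e was at 1.27 CPM and Serpinb6d at 0.454 CPM, and the sebaceous sum was again the highest of its group, at 290 CPM. Serpinb6c was at 2.08 CPM in syngeneic replicate 1. Serpinb11 was at 52.5 CPM in nintedanib replicate 1, the library richest in hair follicle genes, against 10.8 to 15.7 CPM in the other 4. Serpinb9b was at 6.10 CPM in nintedanib replicate 4.

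Serpinb3d, too low to be a member, had a summed count of 27 in allogeneic isotype skin and 0 in both syngeneic and anti-IL1RAP skin. That is at least 11.6-fold and 11.8-fold more than the floor of 3 counts over each of those groups. It had 28 counts with water and 3 with nintedanib, a ratio of 0.0799 (95% exact counting interval 0.0156 to 0.259). As its coding sequence is 89.6% identical to that of Serpinb3a, stray reads from that gene cannot be told apart.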

How the results depend on the processing

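The 34 member values followed through the alternatives were the calls, the nintedanib values at an unadjusted edgeR p under 0.05, and Serpinb6e and Serpinb3a in each comparison within a run. All 34 kept their direction in every setting that tested them, which was likely beforehand because mostly clear changes were followed. Of 25 calls 13 stood in every setting. Leaving out 1 library gave 9 to 12 members higher and 1 to 3 lower in allogeneic isotype against syngeneic skin, where the fit of all 21 libraries gave 1 lower. For anti-IL1RAP against isotype it gave 2 to 3 higher and 8 to 9 lower, and 2310 to 3886 of all genes called against 3664 with all libraries (lowest without anti-IL1RAP replicate 4, and 2437 without replicate 3). For anti-IL1RAP against syngeneic it gave 164 to 511 genes against 505, for nintedanib against water 3 to 139 against 94, and for the difference of effects 0 to 8 against 0.

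The check showed no pairing by replicate number, which does not exclude it. The title numbers of the anti-IL1RAP group differ from those in its descriptions. With the replicate block by description number, anti-IL1RAP against isotype had 1 member higher and 5 lower, and 1642 genes called. With the block by title number it had 2 and 8, allogeneic isotype against syngeneic had 11 and 2, nintedanib against water had 33 genes called, and the difference of effects 1. All 4 libraries correlated best with their own number in no comparison, at most 2 of 4.

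With sebaceous content as covariate, anti-IL1RAP against isotype had 0 members higher and 4 lower and 1098 genes called, and against syngeneic 320. Anti-IL1RAP against syngeneic called 1595 genes with DESeq2 (1 member lower), 2131 with only those 2 groups (1 member higher, 1 lower) and 166 in the fit of all 21 libraries, which called 2204 for anti-IL1RAP against isotype. Nintedanib against water called 49 genes with no filter, 29 with the lane term, 6 without the hair-rich libraries, 1330 with DESeq2 and 1906 in the fit of all 21 libraries (2 members higher and 4 lower in each of the last 2). DESeq2 called 454 genes for the difference of effects, and edgeR 6 without the hair-rich libraries. The cause of these shifts was not tested, apart from the smaller number of libraries where some were left out. Depth limits Serpinb3a in syngeneic skin (5 counts) and Serpinb6e with water (2 counts), whose folds rest on those counts.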
